A study of Mus musculus with 6 samples.

Results

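The genes described here encode the proteins of the mitochondrial ribosome, and were taken from gastrocnemius RNA of wild-type (WT) mice and of knockout (KO) mice without lnc-ORA, a long non-coding RNA. They are all rows of the deposited expression table whose symbol starts with Mrpl or Mrps followed by a digit, without pseudogene symbols: 78 of 11815 genes. The gastrocnemius is a calf muscle, and the study asked how lnc-ORA bears on the conversion of muscle fibre types. The KO mice carried a CRISPR deletion of 5147 bp that takes out the whole transcript, made by injection of Cas9 and 2 guides into fertilised eggs on a C57BL/6 background, with founders then bred to wild-type mice. Muscle was taken at 15 weeks of age, with WT replicates 2, 3 and 4 and KO replicates 1, 2 and 3 (n = 3 each). Neither the number of founders nor separate animals behind the libraries are given in the labels, so a p-value here covers the spread among the 6 libraries, which may be technical. The level of lnc-ORA itself was not analysed here, and the genotype labels were taken as given.

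Mitochondria keep a ribosome of their own, which makes the few respiratory chain proteins that the mitochondrial genome encodes. Its RNA comes from that genome, whereas all of its proteins are encoded in the nucleus, made in the cytosol and imported. Many of these proteins descend from bacterial ribosomal proteins and are named after them (uL for the large subunit, uS for the small subunit, with b in place of u where only bacteria share them), and the others occur in mitochondria only. Loss of single members is known to impair oxidative phosphorylation, the process that slow and oxidative fibres rely on most. By this naming 51 of the 78 genes encode proteins of the large subunit, among them Mrps18a and Mrps30 in spite of their symbols, and 26 encode proteins of the small subunit. The remaining gene, Mrps36, encodes a protein that is now known as a part of the 2-oxoglutarate dehydrogenase complex. Of the 78 proteins 48 have a bacterial counterpart and 30 are specific to mitochondria.

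Values were RPKM, reads per kilobase of gene length, scaled to the total reads of the library. Library totals of 54370181 to 69693905 reads were recovered from the values. Each of the 78 genes had between 68 and 8014 reads in a library, and the median of the lowest library per gene was 762 reads. The scaling of the libraries bears on small differences, since the 10 most abundant genes of the table took 44.4% to 48.3% of the reads in WT and 50.2% to 53.9% in KO. The 8 fibre markers, such as Acta1 and Ckm, summed to 94295 to 101797 RPKM in WT and 103676 to 109952 in KO, and all were high, as in skeletal muscle, with 1 of 8 called as lower. Schwann cell markers were lower in KO: 4 of 4 tested fell, and the list of 5 summed to 30.8 to 49 RPKM in WT and 6.98 to 9.69 in KO. Endothelial markers summed to 15.8 to 24.8 and 12.6 to 13.8 RPKM, and 1 of 5 fell. Of 3 tested markers of fibro-adipogenic cells 1 rose, and the list of 5 summed to 10.3 to 17.9 and 14 to 18.6 RPKM. Erythrocyte markers summed to 25.2 to 44.1 RPKM in WT and 17.9 to 108 in KO, with none of 4 called. Smooth muscle markers summed to 34.9 to 61.5 RPKM in WT and 30.1 to 47.3 in KO, with none of 3 tested called. Macrophage markers summed to 3.28 to 7.54 and 4.32 to 7.34 RPKM, and the 1 tested was not called. None of the 4 adipocyte markers was analysed here. Mitochondrial ribosomal proteins are made in every nucleated cell type, and the part of these cells in the results below was not tested. In whole muscle, fewer cells of a type and less RNA per cell cannot be told apart.

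Upstream sequences are shown for the 3 genes of the family that passed the test between genotypes and for Mrps22, the gene with the smallest p-value among those higher in KO. Each is the 250 bases before the start site on the strand of the gene, from RefSeq (GRCm38.p6, whereas the submitters' processing notes name GRCm39). Capitals mark the motif CCGGAAG, a word bound by ETS factors such as GABPA, a known regulator of nuclear genes for mitochondria. Other forms of ETS site were not searched.
Mrpl41, chr2:24975099-24975348, minus strand: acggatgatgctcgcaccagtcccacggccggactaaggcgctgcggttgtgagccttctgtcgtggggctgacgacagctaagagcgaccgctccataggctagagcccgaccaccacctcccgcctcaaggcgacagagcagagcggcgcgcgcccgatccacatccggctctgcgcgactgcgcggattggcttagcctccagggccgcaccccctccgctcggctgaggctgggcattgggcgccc
Mrps30, chr13:118387253-118387502, minus strand: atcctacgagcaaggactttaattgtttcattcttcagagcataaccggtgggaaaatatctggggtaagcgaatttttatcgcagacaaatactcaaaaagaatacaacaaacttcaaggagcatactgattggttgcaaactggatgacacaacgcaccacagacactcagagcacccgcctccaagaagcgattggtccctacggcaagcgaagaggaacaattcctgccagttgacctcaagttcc
Mrps9, chr1:42850983-42851232, plus strand: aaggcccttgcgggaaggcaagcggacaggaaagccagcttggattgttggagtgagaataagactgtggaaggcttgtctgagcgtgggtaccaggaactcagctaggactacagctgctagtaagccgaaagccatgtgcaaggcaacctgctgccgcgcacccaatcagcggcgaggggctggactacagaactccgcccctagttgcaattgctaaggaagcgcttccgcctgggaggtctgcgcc
Mrps22, chr9:98601680-98601929, minus strand: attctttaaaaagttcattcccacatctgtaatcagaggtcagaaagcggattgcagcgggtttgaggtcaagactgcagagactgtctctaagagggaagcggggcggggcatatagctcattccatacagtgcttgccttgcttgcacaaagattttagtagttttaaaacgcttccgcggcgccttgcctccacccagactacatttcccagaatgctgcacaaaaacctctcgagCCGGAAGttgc
No copy of the motif was found on either strand in the windows of Mrpl41, Mrps30 and Mrps9, which says only that these letters are not there, and Mrps22 holds a copy that begins 11 bases before its start. Other genes of the family whose log2 fold change is given below were mixed in both directions. Among those higher in KO, Mrps27 and Mrpl34 had a copy, as did a window of Mrpl48, and Mrpl12, Mrpl45, Mrps6 and Mrps36 had none. Among those lower in KO, Mrpl17 had a copy, and Mrpl2, Mrpl9, Mrpl14, Mrpl16, Mrps2 and Mrps5 had none. No window was found for Mrpl4, Mrpl19, Mrpl38 and Mrps35. Whether the motif goes with the direction of change was not tested. Promoter windows of 300 bases were found for 69 of the 78 genes, 75 windows in all. The ETS motif was present on either strand in 26 of these (34.7%), against 8.86% of all 32851 windows in the table. The NRF1 core GCATGCG was present in 8 (10.7%) against 3.58%, the YY1 core AAGATGG in 13 (17.3%) against 6.34%, and the box TATAAA in 5 (6.67%) against 13.6%, all searched on either strand. No 2 of these words contain each other. The windows were not matched for base composition, and a match is a description of the letters and not of binding.

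In WT muscle the family spanned a wide range of RNA levels around a median of 6.69 RPKM, and it nearly kept its order in KO, where the median was 6.57. The median over all 7574 tested genes was 3.82 RPKM in WT and 3.51 in KO. Mrpl42, a mitochondria-specific protein of the large subunit, had the highest level, with 150, 154 and 184 RPKM in WT replicates 2, 3 and 4 and 170, 169 and 184 in KO replicates 1, 2 and 3. The gene length recovered from its values was 666 bases, against 3682 bases of annotated exons (GENCODE M21), so its rank rests on the length used. In the reference annotation 18.8% of its 50-base stretches also occur in Gm6419. Mrpl18 (uL18), of the central protuberance, followed with 69.3, 68.8 and 80.5 RPKM in WT and 78.7, 80.6 and 81 in KO. Mrps21 (bS21), of the small subunit, came next in rank by mean over all libraries, with 33, 32.5 and 39.6 RPKM in WT and 33.2, 31.8 and 38.5 in KO. The 2 groups overlapped for each of these 3 genes.

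The lowest levels were those of Mrpl19 (bL19), Mrps2 (uS2) and Mrps17 (uS17). Mrpl19 was measured at 0.745, 0.661 and 0.812 RPKM in WT and 1.01, 0.914 and 0.951 in KO, so that every KO library was above every WT library. In the GENCODE M21 annotation 36% of the exon sequence of Mrpl19 overlaps Gcfc2 on the opposite strand, so its share of the reads is uncertain. Mrps2 was at 1.03, 0.977 and 1.19 RPKM in WT and 0.768, 0.899 and 0.762 in KO, with every KO library lower. These 2 genes did not reach 1 RPKM in at least 3 libraries and were not tested. With no filter on low values their log2 fold changes were 0.17 and -0.19 and did not pass (limma, adjusted p = 0.0892 and 0.0926). Mrps17 was at 1.26, 1.21 and 1.42 RPKM in WT and 1.06, 1.08 and 1.19 in KO.

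The highest mean was 198 times the lowest, and 29 of the 78 genes had a mean of at least 10 RPKM over all libraries. Across the 78 genes, which are not independent replicates, the mean RPKM of WT and KO had a rank correlation of 0.99. Levels between genes depend on the gene length used. The length recovered from the RPKM equalled that of all annotated exons of GENCODE M21 for 64 of the genes and differed from it for the other 14. Per kilobase of the longest coding transcript, a choice made after the data were seen, the same 3 genes led and the highest level was 182 times the lowest, but 11 genes moved by more than 20 ranks. For Mrpl42, the highest, both lengths were 666 bases, so this change of length could not move its value. Mrpl33 (bL33), with 7326 bases of exons and a coding transcript of 478, went from rank 71 to rank 10, and Mrps9, with 5763 and 1418, from rank 26 to rank 5. Mrps16 (bS16) and Mrps30, whose recovered lengths of 566 and 1590 bases were shorter than their coding transcripts of 2572 and 3319, went from rank 40 to rank 76 and from rank 24 to rank 56. If their reads were counted over the recovered length only, the coding length does not match them, and these lower ranks do not estimate the level. Fold changes between genotypes do not depend on this length other than through the pseudocount.

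Between genotypes the family as a whole differed little, and 3 of its 76 tested genes passed. Mrpl41, Mrps30 and Mrps9 fell in KO muscle (limma on log2(RPKM + 1), adjusted p of at most 0.05 over all 7574 tested genes), and no gene of the family rose. These 3 calls are 3.95% of the tested family. Over all tested genes 17.3% were called, 13.5% as lower and 3.83% as higher in KO. At an unadjusted p under 0.05, 9 genes of the family were lower and 2 were higher in limma, where 25.8% and 7.59% of all tested genes were. Every WT library was above every KO library for 19 of the 76 genes, against 30% of all tested genes, and every KO library was above every WT library for 5, against 9.22%. The shares called or separated were thus below those over all tested genes, and this difference was not tested.

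**Figure D1:**
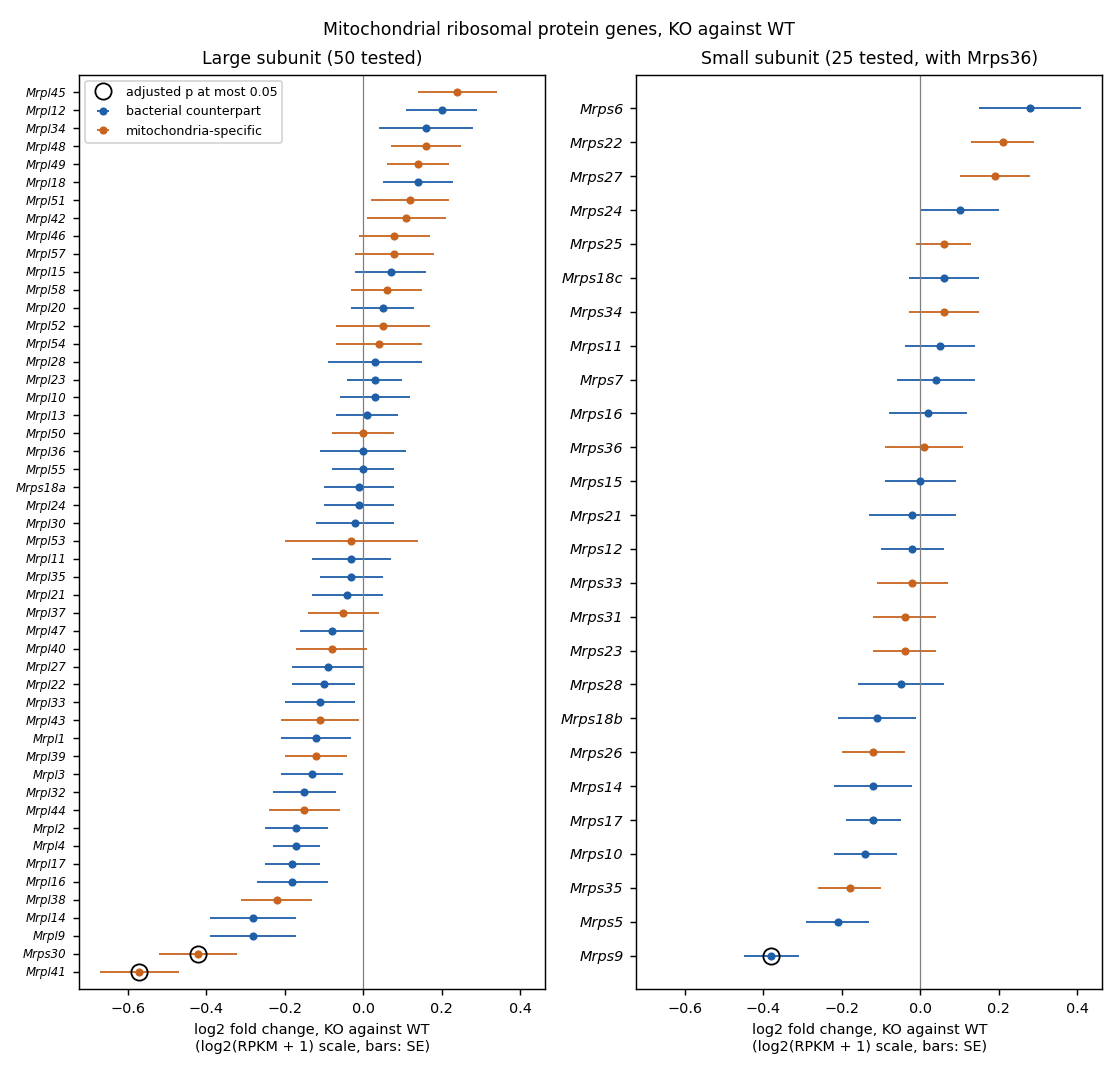
Log2 fold change of KO against WT on the log2(RPKM + 1) scale (horizontal axis, points with SE bars) for each tested gene of the family, with the large subunit on the left, Mrps18a and Mrps30 included, and the small subunit with Mrps36 on the right. Blue points have a bacterial counterpart, orange points are specific to mitochondria, and rings mark the 3 genes that passed, Mrpl41 at -0.57, Mrps30 at -0.42 and Mrps9 at -0.38.

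The log2 fold changes of the 76 genes ran from -0.57 to 0.28 with a median of -0.02, and 32 lay above 0 and 44 below. The quartiles were -0.12 and 0.05, and the median SE was 0.09. Over all tested genes the median was -0.09 with quartiles of -0.23 and 0.05. The 50 tested genes of the large subunit had a median of -0.02 with 2 called, and the 25 of the small subunit had a median of -0.02 with 1 called. The 46 tested genes with a bacterial counterpart had a median of -0.02 with 1 called, and the 30 specific to mitochondria a median of 0.00 with 2 called.

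The sign of these medians rests on how libraries are scaled. With library medians made equal, the median of all tested genes moved from -0.09 to 0.01 and that of the family from -0.02 to 0.08. With library totals counted without the 10 most abundant genes these medians were 0.02 and 0.11. Relative to the median of all tested genes the family stood 0.07, 0.07 and 0.08 higher on the log2 scale under the 3 scalings. This offset was 0.03 without WT replicate 2 or WT replicate 3, 0.04 without KO replicate 1, 0.11 without KO replicate 2 and 0.13 without WT replicate 4. The calls over all genes split into 290 higher and 1021 lower as deposited, 602 and 665 with equal medians, and 680 and 613 without the 10 most abundant genes. In the family the same 3 genes stayed lower of 76 with equal medians, with none higher, where 8.78% of all tested genes were called lower and 7.95% higher. Without the 10 most abundant genes 2 of them stayed lower (Mrpl41 and Mrps9), and Mrpl12, Mrpl45, Mrps22 and Mrps27 passed as higher. Under that scaling 8.98% of all tested genes were called higher and 8.09% lower.

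**Figure D2:**
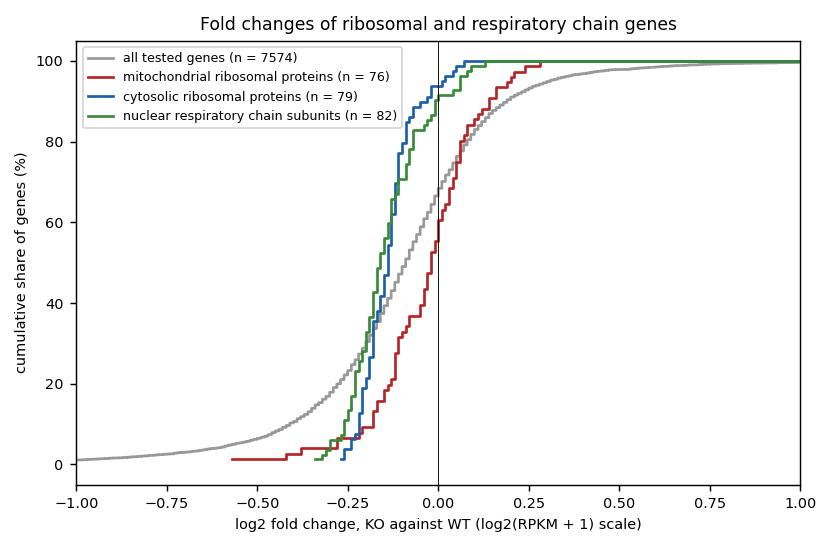
Cumulative share of genes in percent (vertical axis) against the log2 fold change of KO against WT on the log2(RPKM + 1) scale (horizontal axis, shown from -1 to 1) for all 7574 tested genes and 3 gene families. The curve of the 76 mitochondrial ribosomal protein genes lies to the right of those of the 79 cytosolic ribosomal protein genes and the 82 respiratory chain genes through most of its range, with medians of -0.02, -0.14 and -0.16.

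Mrpl41 showed the largest fall of the large subunit. It encodes a protein specific to mitochondria that is also known to bind BCL2. Its level was 22.8, 19.2 and 17.5 RPKM in WT replicates 2, 3 and 4 and 12.7, 13.4 and 12.7 in KO replicates 1, 2 and 3. All 3 KO libraries lay below all 3 WT libraries and close to each other. The mean went from 19.8 ± 2.72 to 12.9 ± 0.4 RPKM (SD, n = 3 each), which is a log2 fold change of -0.57 (SE 0.10, limma adjusted p = 0.0103). It was -0.47 with equal library medians and -0.43 without the 10 most abundant genes. The call ended without KO replicate 3 (adjusted p = 0.054), while the fold change was -0.56. In transcripts of the reference annotation, 13.8% of the 50-base stretches of Mrpl41 also occur in the pseudogene Gm6434, which was not analysed here. Mrpl41 lies on chromosome 2 (24974117 to 24975098, GRCm38) with no exon shared with another gene.

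Mrps30 encodes a mitochondria-specific protein of the large subunit that was first described as a programmed cell death gene. Its level was 15.5, 13 and 12.4 RPKM in WT and 9.58, 9.58 and 10.5 in KO, with no overlap between the groups. The mean went from 13.6 ± 1.64 to 9.9 ± 0.55 RPKM (SD, n = 3 each), which is a log2 fold change of -0.42 (SE 0.10, limma adjusted p = 0.0254). This call was the least stable of the 3. It ended without WT replicate 3 (adjusted p = 0.064), without KO replicate 1, 2 or 3 (0.0932, 0.0831 and 0.0715) and without the 10 most abundant genes (0.0606). The fold changes in the fits without 1 of these libraries were -0.45, -0.40, -0.40 and -0.46, and without the 10 most abundant genes -0.28. Mrps30 lies on chromosome 13 (118378381 to 118387252, GRCm38), and 9.35% of its exon sequence overlaps B430218F22Rik on the opposite strand. Whether the counting used the strand is unknown. The gene length recovered for Mrps30 was 1590 bases, against 6666 in this annotation, so the overlapping exons may not have been counted. B430218F22Rik had a log2 fold change of -0.03 (adjusted p = 0.796).

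Other mitochondria-specific proteins of the large subunit did not pass. Mrpl38, of the central protuberance, was at 14.5, 13.5 and 12.7 RPKM in WT and 10.6, 12.4 and 11.6 in KO, with a log2 difference of -0.22 (SE 0.09, adjusted p = 0.127). Mrpl45, which holds the ribosome at the inner membrane next to the tunnel exit, was at 6.84, 6.61 and 8.45 RPKM in WT and 8.32, 9.34 and 8.68 in KO. WT replicate 4 overlapped the KO libraries, and the log2 fold change was 0.24 (SE 0.10, adjusted p = 0.14). Without WT replicate 4 it passed as higher (0.34, adjusted p = 0.0344), as it did without the 10 most abundant genes (0.37, adjusted p = 0.0418).

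None of the 30 tested large-subunit proteins with a bacterial counterpart passed in limma, and 4 were lower and none higher at an unadjusted p under 0.05. Mrpl4 (uL4), which lines the exit tunnel, was at 1.39, 1.4 and 1.45 RPKM in WT and 1.15, 1.11 and 1.17 in KO. Its libraries lay close together within each group, and its log2 fold change of -0.17 did not pass (SE 0.06, adjusted p = 0.0863). Mrpl17 (bL17), near the tunnel exit, was at 2.83, 2.68 and 2.87 RPKM in WT and 2.28, 2.34 and 2.4 in KO (log2 fold change -0.18, adjusted p = 0.106). Mrpl9 (bL9) was at 7.8, 6.79 and 5.87 RPKM in WT and 4.77, 5.69 and 5.83 in KO, where the lowest WT library was next to the highest KO library (log2 fold change -0.28, SE 0.11, adjusted p = 0.129).

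Mrpl14 (uL14) sits at the subunit interface, where the assembly factor MALSU1 binds it. It was at 17.3, 13 and 15.9 RPKM in WT and 12.3, 13 and 12 in KO, so that WT replicate 3 and KO replicate 2 were level (log2 fold change -0.28, SE 0.11, adjusted p = 0.113). Mrpl2 (uL2), next to the site of peptide bond formation, was at 34.3, 35.7 and 39 RPKM in WT and 32.3, 30.9 and 33.1 in KO (log2 fold change -0.17, adjusted p = 0.181). Mrpl12 (bL12), the stalk protein that recruits translation factors, was at 16.7, 15.5 and 19.2 RPKM in WT and 19.5, 19.9 and 19.8 in KO. The KO libraries lay together just above WT replicate 4, and the log2 fold change was 0.20 (SE 0.09, adjusted p = 0.177). Mrpl12 passed as higher without WT replicate 4 (0.28, adjusted p = 0.0469) and without the 10 most abundant genes (0.34, adjusted p = 0.0481).

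**Figure D3:**
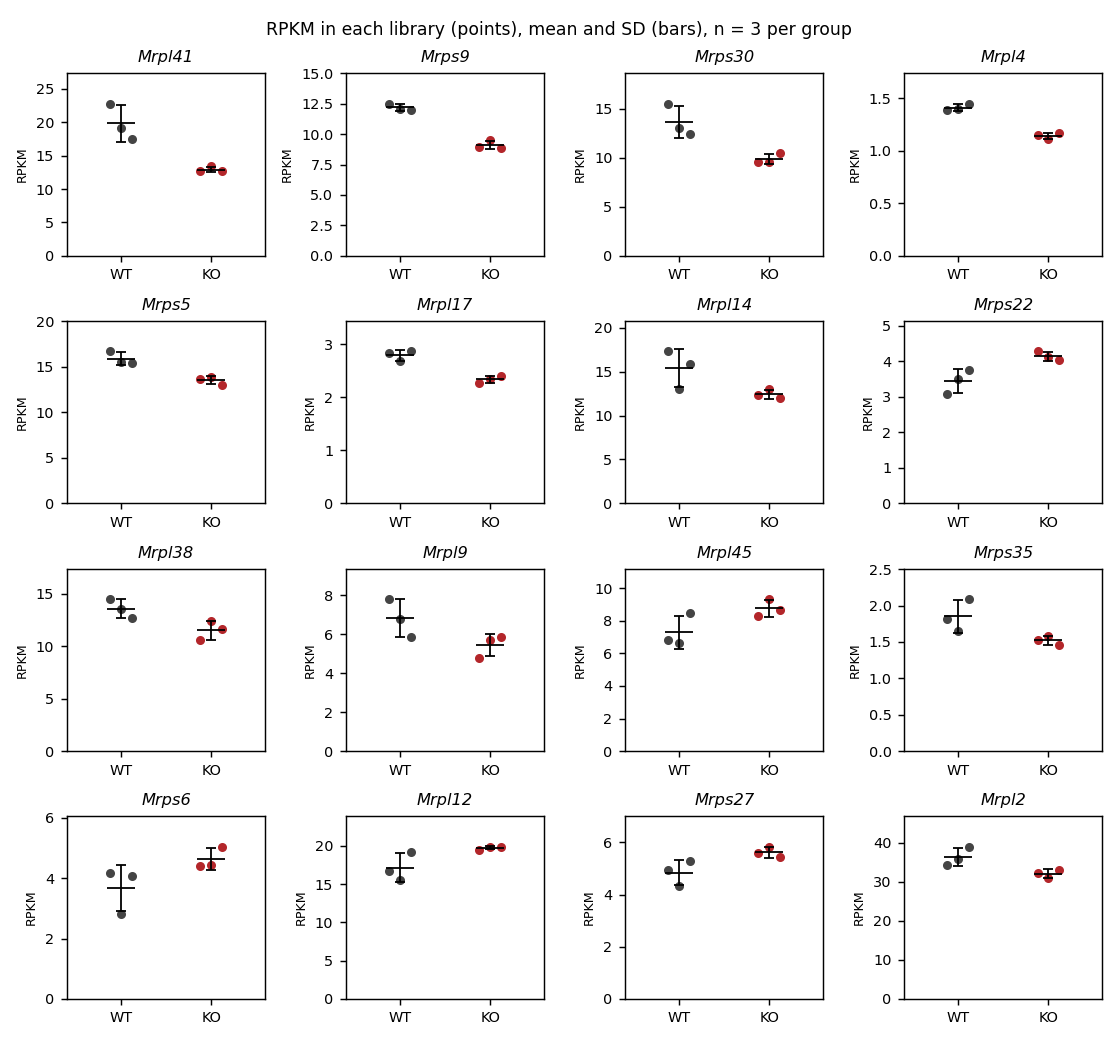
RPKM (vertical axes, each from 0) in the 3 WT libraries (grey points) and 3 KO libraries (red points) for the 16 tested genes of the family with the smallest p-values, with mean and SD as bars. Mrpl41, Mrps9 and Mrps30, the 3 genes that passed, have all KO libraries below all WT libraries, and Mrps22, Mrps6, Mrpl12 and Mrps27 have all KO libraries above. Mrpl2, Mrpl4, Mrpl9, Mrpl14, Mrpl17, Mrpl38, Mrps5 and Mrps35 did not pass, though they also have all KO libraries below (Mrpl14 only before rounding).

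In the small subunit Mrps9 fell. It encodes uS9, a protein of the head whose bacterial counterpart reaches the transfer RNA in the peptidyl site. Its level was 12.5, 12.1 and 12 RPKM in WT and 8.96, 9.5 and 8.88 in KO, with a narrow spread within each group and no overlap. The mean went from 12.2 ± 0.266 to 9.12 ± 0.334 RPKM (SD, n = 3 each), which is a log2 fold change of -0.38 (SE 0.07, limma adjusted p = 0.0124). It was -0.28 with equal library medians and -0.25 without the 10 most abundant genes. The call ended without KO replicate 1 or 3 (adjusted p = 0.0562 and 0.0711), with a fold change of -0.37 each time. Mrps9 lies on chromosome 1 (42851233 to 42905683, GRCm38), and neither an exon overlap with another gene nor a shared 50-base stretch was found.

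The other genes of the small subunit did not pass. Mrps5 (uS5), near the channel where messenger RNA enters, was at 16.7, 15.5 and 15.4 RPKM in WT and 13.7, 13.9 and 13 in KO, with a log2 difference of -0.21 (SE 0.08, adjusted p = 0.0959). Mrps35, specific to mitochondria, was at 1.81, 1.65 and 2.09 RPKM in WT and 1.52, 1.58 and 1.46 in KO (log2 fold change -0.18, adjusted p = 0.159). Both had every KO library below every WT library.

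Genes of the small subunit with higher values in KO were Mrps22, Mrps27 and Mrps6. Mrps22, a mitochondria-specific protein whose mutation is a known cause of respiratory chain disease, was at 3.09, 3.51 and 3.75 RPKM in WT and 4.28, 4.13 and 4.03 in KO (log2 fold change 0.21, SE 0.08, adjusted p = 0.12). Mrps27, a pentatricopeptide repeat protein, was at 4.93, 4.32 and 5.27 RPKM in WT and 5.61, 5.84 and 5.43 in KO (log2 fold change 0.19, SE 0.09, adjusted p = 0.179). Mrps6 (bS6) had the highest log2 fold change of the tested family with all libraries, 0.28 (SE 0.13, adjusted p = 0.169), and 0.14 without WT replicate 3. It was at 4.16, 2.81 and 4.07 RPKM in WT and 4.39, 4.44 and 5.05 in KO, with WT replicate 3 far below the other libraries. All 3 had every KO library above every WT library. Mrps22 and Mrps27 passed as higher without the 10 most abundant genes (adjusted p = 0.0461 and 0.038). In the reference annotation 32.2% of the 50-base stretches of Mrps6 also occur in other genes, chiefly Gm49711 and Slc5a3. Its exons overlap genes on the same strand over 19.9%, and those of Mrps27 overlap 6430562O15Rik on the opposite strand over 24.2%. Mrps22 had no exon overlap and no shared stretch. Recovered lengths of Mrps6 and Mrps27, 1053 and 1848 bases, were shorter than 1533 and 2093 in this annotation. Whether the overlaps were counted is unknown.

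Mrps36, whose product is not a stable part of the ribosome, was at 6.28, 6.18 and 7.22 RPKM in WT and 7.2, 6.79 and 5.83 in KO (log2 fold change 0.01, SE 0.10, adjusted p = 0.972). The remaining genes had log2 fold changes between -0.18, for Mrpl16 (uL16), and 0.16, for Mrpl48 and Mrpl34, and adjusted p of at least 0.199. Mrpl53, another mitochondria-specific protein, was the least reproducible of the family, with an SD of 0.36 on the log2(RPKM + 1) scale in WT, where the median gene of the family had 0.11. It was at 7.27, 6.54 and 11.1 RPKM in WT and 8.29, 7.19 and 8.24 in KO. All 50-base stretches of its longest coding transcript also occur in the readthrough gene model Gm42688, so its share of the reads is uncertain.

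The authors' deposited table gives its own comparison, with a median log2 fold change of 0.06 for the family and 0.00 over all rows. Why its fold changes differ from those above was not tested. None of the 78 genes had an FDR of at most 0.05 in the authors' deposited table, where 0.711% of all rows did as higher and 0.906% as lower. At an unadjusted p under 0.05 that table held 6 of the 78 genes as higher and 3 as lower, where 9.94% and 12.2% of all rows were. Its log2 fold changes were -0.36 for Mrpl41 (FDR 0.0832), -0.26 for Mrps9 (FDR 0.0893) and -0.23 for Mrps30 (FDR 0.168) in the authors' deposited table. Mrps27, Mrps22 and Mrpl12 stood at 0.31, 0.33 and 0.29 in the authors' deposited table (FDR 0.108, 0.111 and 0.117), and Mrpl19 at 0.43 (FDR 0.108).

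The genes of the family deviated in a shared direction in single libraries of the same genotype. In WT replicate 4, 69 of the 76 genes lay above their own mean over all libraries, with a median deviation of 0.10 on the log2(RPKM + 1) scale, where the median of all tested genes was 0.01. In WT replicate 3, 21 of 76 lay above their mean (median deviation -0.05), and in WT replicate 2, 36 did (-0.02), although the median of all tested genes in that library was 0.12. In KO replicates 1, 2 and 3 the counts were 41, 21 and 37, with medians of 0.02, -0.04 and 0.00. Of all 7574 tested genes 5628, 4064 and 4091 lay above their own mean in WT replicates 2, 3 and 4. The counts over all tested genes in KO replicates 1, 2 and 3 were 2082, 3383 and 2967, with medians of -0.08, -0.02 and -0.03. The range of the family's median within WT was thus wider than its difference between genotypes. Without WT replicate 4 the family's median log2 fold change was 0.03 in place of -0.02, and the genes above and below 0 numbered 43 and 33. Of the 76 genes 2 then passed as higher (Mrpl45 and Mrpl12) and the same 3 as lower, where 4.56% and 15.6% of all tested genes did, 20.1% together.

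**Figure D4:**
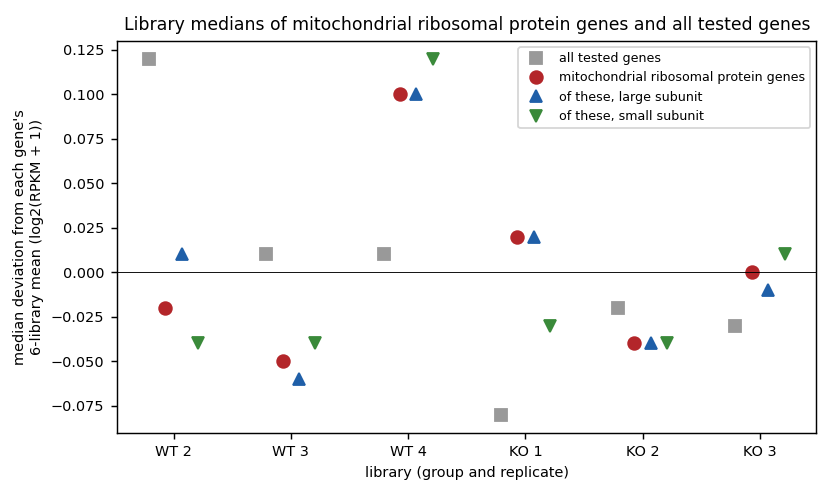
Median deviation of genes from their own mean over the 6 libraries, on the log2(RPKM + 1) scale (vertical axis), in each library (horizontal axis), for all tested genes, the 76 tested genes of the family and its large and small subunits. The family is highest in WT replicate 4, at 0.10, and lowest in WT replicate 3, at -0.05, while all tested genes are highest in WT replicate 2, at 0.12.

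Genes that work with these proteins were described from lists of their own. All 5 mitochondrial ribosomal proteins that carry other symbols, Dap3, Ptcd3, Chchd1, Aurkaip1 and Gadd45gip1, were tested, and none passed in limma, with none at an unadjusted p under 0.05 either and a median log2 fold change of -0.01. Gadd45gip1 had the smallest p of them, at 16.3, 17.8 and 21.2 RPKM in WT and 17.5, 15.1 and 15 in KO (adjusted p = 0.248). Of 16 tested genes of ribosome assembly and ribosomal RNA modification 2 fell and none rose, with a median of -0.14. That is 12.5% of the list, near the 13.5% called as lower over all tested genes. Rbfa, a factor that matures the small subunit, was at 28.6, 28.6 and 30.4 RPKM in WT and 24.9, 21.5 and 22.8 in KO (log2 fold change -0.33, SE 0.08, adjusted p = 0.034). Malsu1, the factor that keeps an immature large subunit from joining, was at 4.19, 4.12 and 4.06 RPKM in WT and 3.1, 3.32 and 3.43 in KO (log2 fold change -0.26, SE 0.07, adjusted p = 0.047). Both calls ended with equal library medians (adjusted p = 0.158 and 0.153), without the 10 most abundant genes (0.24 and 0.183) and without any 1 of the 6 libraries (up to 0.128 and 0.162). That of Malsu1 also ended with no filter (0.0517), with equal medians of the family (0.0708) and with a replicate block (0.12). In the block fit only replicates 2 and 3 of each group bear on the genotype difference.

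Of 10 tested mitochondrial aminoacyl-tRNA synthetases and amidotransferase subunits, which charge the transfer RNAs that this ribosome reads, 2 fell and none rose, against 13.5% of all tested genes called as lower. Iars2, the isoleucine enzyme, was at 4.92, 5.06 and 4.67 RPKM in WT and 3.58, 3.47 and 3.64 in KO (log2 fold change -0.37, SE 0.07, adjusted p = 0.0146). Gatb, a subunit of the glutamine amidotransferase, was at 3.29, 3.21 and 3.4 RPKM in WT and 2.6, 2.41 and 2.65 in KO (log2 fold change -0.27, SE 0.07, adjusted p = 0.0369). Both calls ended with equal library medians (adjusted p = 0.0504 and 0.163) and without the 10 most abundant genes (0.0572 and 0.169). That of Iars2 also ended without WT replicate 3 or any 1 KO library (up to 0.0664), and that of Gatb without any 1 of the 6 libraries (up to 0.123) and with a replicate block (0.0988). None of 12 tested translation factors passed in limma, with 1 higher and 2 lower at an unadjusted p under 0.05. The elongation factor Gfm1 had the smallest p, at 20.6, 20.5 and 18.5 RPKM in WT and 15.3, 17.1 and 16.4 in KO (log2 fold change -0.27, SE 0.08, adjusted p = 0.0586), and it passed as lower without WT replicate 4 (adjusted p = 0.0362). Taco1, the translational activator of cytochrome oxidase subunit I, was at 6.16, 5.65 and 5.86 RPKM in WT and 6.3, 9.41 and 7.33 in KO, with every KO library above every WT library and a wide spread in KO (log2 fold change 0.32, SE 0.13, adjusted p = 0.124, and 0.18 without KO replicate 2). It passed as higher with equal library medians (adjusted p = 0.0373), without the 10 most abundant genes (0.0268) and with a replicate block (0.0288). Of 9 tested genes of mitochondrial transcription and its nuclear regulators 1 rose, the coactivator Ppargc1a, where 3.83% of all tested genes were called as higher. Ppargc1a was at 2.26, 1.68 and 1.37 RPKM in WT and 3.51, 5.49 and 4 in KO (log2 fold change 0.94, SE 0.16, adjusted p = 0.0082).

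Of the families closest in function, the 79 cytosolic ribosomal protein genes had a median log2 fold change of -0.14, with 5 above 0 and none called in limma (11 lower at an unadjusted p under 0.05). The 82 tested nuclear genes for respiratory chain subunits had a median of -0.16, with 8 above 0 and 4 called as lower. These calls are 4.88% of the list, under the 13.5% called as lower over all tested genes. None of them held with equal library medians or without the 10 most abundant genes. Relative to all tested genes these medians lay 0.05 and 0.07 lower, where that of the mitochondrial ribosomal proteins lay 0.07 higher. Leaving out 1 library changed most of these values, and some moved to 0 or across it. Without WT replicate 4 the cytosolic, respiratory chain and mitochondrial ribosomal genes stood at 0.00, 0.01 and 0.13, without WT replicate 2 at -0.13, -0.13 and 0.03, and without KO replicate 2 at 0.01, -0.04 and 0.11. Without KO replicate 1 they stood at -0.10, -0.09 and 0.04, and without KO replicate 3 at -0.08, -0.05 and 0.07. Without WT replicate 3 the mitochondrial ribosomal genes stood at 0.03. The mitochondrial ribosomal genes had the highest of the 3 medians in each fit run, whereas the other two families changed order, and the difference between families was not tested.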

How the data were processed

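The authors fragmented gastrocnemius mRNA and made cDNA with random primers for sequencing, per the labels' protocols. The submitters' processing notes name GRCm39. The aligner, counting program, annotation and strand setting were not given in the sources used here. The deposited values are RPKM, a unit inferred from the values because the file header names none. Columns of the authors' own comparison hold a log2 fold change, log2 CPM, F score, p-value and FDR per the file headers, without the test. All columns were mapped (0 left out).

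Once a library total and gene length were multiplied in, values were whole reads (within 0.02) in all libraries for 99.9% of genes and for all 78 described here, 64 of them at the exon length of GENCODE M21. The main test was limma-trend (R 4.3.3, limma 3.58.1) with genotype alone, fitted to log2(RPKM + 1). A gene was tested if 3 or more libraries reached 1 RPKM, and p-values were adjusted by Benjamini-Hochberg at 0.05 over all tested genes. Low genes have understated fold changes on this scale, and each SD is of RPKM. The fit was also run on simulated data, with independent noise per gene and no difference in scaling between libraries. That run cannot bear on the effects of scaling or of single libraries described here.

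Genes are named if called, among the 16 smallest p-values, or of the 3 highest or lowest levels, and of other lists if called or smallest in p. Mrpl53, Mrps36, Taco1 and the rank examples were chosen after their values were seen. The family and the lists were chosen with earlier results of these data known. Places, overlaps and shared 50-base stretches come from GENCODE M21 (GRCm38). Alternatives were a pseudocount of 0.1, no filter, equal library medians, totals without the 10 most abundant genes, each library left out, a replicate block and limma-voom on recovered reads. Equal medians of the family and coding transcript length were chosen after seeing the data. Python 3.11.15 with pandas 2.3.3 and matplotlib 3.10.9 did the rest.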

Additional observations from a re-analysis of the deposited data

How the results depend on the processing

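With equal library medians, 602 genes were called higher and 665 lower, and the median of the family was 0.08. Without the 10 most abundant genes these were 680, 613 and 0.11, with 4 genes of the family called higher. With replicate number as a block 1 gene of the family was called higher (Mrpl45) and 377 and 1171 genes over the table. Numbers 2 and 3 occur in both groups, and the labels tie them to no shared animal or day. WT replicate 4 and KO replicate 1 have no partner of the same number. The block fit therefore takes the genotype difference from replicates 2 and 3 of each group only, and its calls do not rest on all 6 libraries. Same-numbered libraries had deviations correlated at 0.48 and 0.27, and WT replicate 4 and KO replicate 1, which share no number, at 0.43. Leaving out 1 library gave 96 to 335 genes called higher and 342 to 1144 lower, 0 to 2 genes of the family higher and 0 to 3 lower, and family medians of -0.07 to 0.03. The count of 0 lower came without KO replicate 3, where 5 were lower at an unadjusted p under 0.05, and the count of 1 without KO replicate 1. These fits have fewer samples.

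With a pseudocount of 0.1, no filter, limma-voom on recovered reads or equal medians of the family (the last chosen after seeing the data), the same 3 genes passed and none was higher. Of the fold changes recomputed for the 16 genes, 193 kept their direction and side of the threshold, 8 lost and 7 gained a call, and none changed sign. A log2 difference of 0.28 (Mrps6, SE 0.13) did not pass in the main fit. Differences of smaller size with a lower SE did pass, such as -0.26 for Malsu1 and -0.27 for Gatb (SE 0.07 each).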
